A study of Mus musculus with 8 samples.

Results

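The cardiac myosin genes *Myh6*, *Myh7*, *Myh7b*, *Myl2*, *Myl3*, *Myl4* and *Myl7* were taken by symbol from the table of expression in the outflow tract (OFT) of mouse embryos. All 7 were found among the 14608 genes of the table. Every gene of the table had at least 1 CPM in at least 3 libraries, so shares over all genes are shares of expressed genes. The RNA came from OFT dissected at E11.5 (embryonic day 11.5), with 4 libraries labelled Control and 4 labelled Mib1V943F/+ Gata6STOP/+. The mutant-labelled embryos were double heterozygotes, with a missense allele of *Mib1*, an E3 ubiquitin ligase needed for NOTCH activation, and a null allele of *Gata6*, a transcription factor of the GATA family, in trans. Both are mutations of the whole animal, so every cell of the OFT carried them, and the labels do not give the genotype of the controls beyond the word Control. Each library was a pool of 3 individuals by the series description, so a value is a mean over embryos, and the p-values measure the spread between pools. The methods of the study describe the pooling differently, so the number of embryos behind a value is uncertain. The values are CPM, read counts scaled by library size, that the authors normalized with the TMM method, which allows for differences in composition between libraries. The question asked of these genes was whether their RNA level, and the balance between atrial and ventricular isoforms, differed between the labelled groups.

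A myosin of the heart thick filament is built from a pair of heavy chains, which carry the motor that pulls on actin, and from 2 kinds of light chain, essential and regulatory, which wrap around the neck of each heavy chain. *Myh6* encodes the fast alpha heavy chain, which dominates the adult mouse heart and the embryonic atria, and *Myh7* the slower beta heavy chain, which dominates the embryonic ventricles and OFT. *Myh7b* encodes a further heavy chain of the same class, expressed at a low level. *Myl2* and *Myl3* encode the regulatory and the essential light chain that are typical of the ventricle. *Myl7* and *Myl4* are their atrial counterparts, which the embryonic heart tube expresses more widely before they become restricted.

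The 3 heavy chain genes each carry a microRNA in an intron. In the annotation of GRCm38 the hairpin of miR-208a lies in intron 29 of *Myh6* (chromosome 14, 54949060 to 54949142), that of miR-208b in intron 31 of *Myh7* (chromosome 14, 54975700 to 54975776) and that of miR-499 in intron 19 of *Myh7b* (chromosome 2, 155622880 to 155622958), each on the strand of its host. The mature sequences of RefSeq are shown because they tie the 3 heavy chain genes to one another, with the seed, bases 2 to 8, in capitals.
mmu-miR-208a-3p: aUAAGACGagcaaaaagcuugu
mmu-miR-208b-3p: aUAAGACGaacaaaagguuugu
mmu-miR-499-5p: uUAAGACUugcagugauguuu
The miRNAs of *Myh6* and *Myh7* have the same seed, UAAGACG, and that of *Myh7b* has UAAGACU. The libraries were made from polyA RNA, and the level of the mature miRNAs was not measured.

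*Myh6* (ENSMUSG00000040752, chromosome 14, 54941921 to 54966927, minus strand) and *Myh7* (ENSMUSG00000053093, chromosome 14, 54970684 to 54994626, minus strand) are neighbours, with 3756 bases between them. Of the 6054 windows of 60 bases, the read length, in the principal *Myh6* transcript, 1154 (19.1%) were also found letter for letter in *Myh7*, and they made up 18.7% of the windows of *Myh7*. Reads from these stretches cannot be assigned to one of the genes by sequence alone, so the split between *Myh6* and *Myh7* is in part an estimate of the quantification. For *Myh7b* (ENSMUSG00000074652, chromosome 2, 155611212 to 155634307, plus strand) and the light chains, 0 windows occurred in another gene. The light chain genes are spread over the genome, with *Myl2* (ENSMUSG00000013936) on chromosome 5 from 122100951 to 122113472, *Myl3* (ENSMUSG00000059741) on chromosome 9 from 110741861 to 110769798, *Myl4* (ENSMUSG00000061086) on chromosome 11 from 104550663 to 104595753, and *Myl7* (ENSMUSG00000020469) on chromosome 11 from 5896637 to 5898782.

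The bases just before the start of transcription are shown for both neighbours on chromosome 14 and for a ventricular and an atrial light chain gene, *Myl7* being the member whose groups overlapped in the comparison. They are RefSeq windows of GRCm38.p6, read 5′ to 3′ on the strand of the gene and ended at the base before the principal transcript: chr14:54966642-54966857 (minus strand) for *Myh6*, chr14:54994627-54994876 (minus strand) for *Myh7*, chr9:110763428-110763645 (plus strand) for *Myl3* and chr11:5898783-5899032 (minus strand) for *Myl7*. Capitals mark matches on either strand to CATTCC (the MCAT element, bound by TEAD factors), to GATAA (a core motif of GATA factors), and to the CArG box (bound by SRF).
Myh6: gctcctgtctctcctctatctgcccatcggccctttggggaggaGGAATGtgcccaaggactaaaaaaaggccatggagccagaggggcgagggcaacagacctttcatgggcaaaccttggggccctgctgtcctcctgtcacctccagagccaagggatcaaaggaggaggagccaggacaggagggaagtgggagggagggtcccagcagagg
Myh7: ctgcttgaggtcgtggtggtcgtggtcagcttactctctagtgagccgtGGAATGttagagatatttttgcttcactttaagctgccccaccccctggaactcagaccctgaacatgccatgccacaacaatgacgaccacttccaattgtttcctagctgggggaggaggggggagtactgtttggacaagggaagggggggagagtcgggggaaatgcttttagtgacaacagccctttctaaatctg
Myl3: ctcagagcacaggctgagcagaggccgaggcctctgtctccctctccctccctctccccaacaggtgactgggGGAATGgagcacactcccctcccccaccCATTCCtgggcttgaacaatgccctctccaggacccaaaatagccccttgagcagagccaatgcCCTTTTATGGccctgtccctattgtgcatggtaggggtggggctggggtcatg
Myl7: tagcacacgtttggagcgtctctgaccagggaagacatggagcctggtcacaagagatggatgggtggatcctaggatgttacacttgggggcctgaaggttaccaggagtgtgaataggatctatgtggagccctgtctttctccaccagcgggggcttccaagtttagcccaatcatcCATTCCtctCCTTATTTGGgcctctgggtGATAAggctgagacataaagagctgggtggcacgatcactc
Windows near the principal start were searched for 6 of the 7 genes, these 4 with *Myh7b* and *Myl4*. CATTCC was found in the 4 windows shown and not in those of *Myh7b* and *Myl4*. Of the 32841 RefSeq windows of 250 bases before a start, 12.6% held it. The windows of *Myh6*, *Myh7b* and *Myl3* are shorter than these, at 216, 219 and 218 bases. GATAA was found in the windows of *Myl7* and *Myh7b*, against 22.6% of all windows. A CArG box was found in those of *Myl3* and *Myl7*, against 1.47% of all windows, and overlapped no other marked motif. An E-box (CANNTG, not in capitals) was found in 4 of the 6 windows and in 66.2% of all windows. The MEF2 site and TATAAA were also searched, in 2.92% and 12.4% of all windows, and matched in none of the 6. The window of *Myl4*, at the most distal of several starts, held none of the motifs searched. The RefSeq starts of *Myl2* lie 8227 and 7762 bases before the principal transcript of the annotation used here, so its window was not searched. A match is a string of letters and says nothing of binding in the OFT.

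*Myh7* was the third most abundant gene of the whole table in both groups, and the 7 genes together took between 1.69% and 1.93% of the CPM in the control-labelled libraries and between 1.29% and 1.57% in the mutant-labelled ones. To compare levels between genes, the CPM were divided by the length of the principal transcript in kb. In the control-labelled libraries the order of mean levels per kb was *Myl2* (2320.3 ± 300.4 CPM per kb), *Myl7* (2070 ± 275), *Myh7* (1663 ± 102), *Myl4* (1472 ± 122), *Myl3* (1392 ± 105), *Myh6* (378 ± 28.8) and *Myh7b* (10.4 ± 1.05; SD, n = 4 each). The ranges over libraries overlapped between *Myl2* and *Myl7*, between *Myh7* and *Myl4* and between *Myl4* and *Myl3*, so these neighbours were not separated, while *Myh6* and *Myh7b* each stood clear of the gene above. In the mutant-labelled libraries *Myl7* (1902 ± 231 CPM per kb) came before *Myl2* (1569 ± 160.3; SD, n = 4 each), again with overlapping ranges, and the other places were the same. Levels per kb of *Myh7* were thus above those of *Myh6* in each of the 8 libraries, and both regulatory light chains, ventricular and atrial, were abundant in the same tissue.

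The mutated genes were looked at before the directions were drawn. The *Gata6* levels were 236, 279, 271 and 261 CPM in the 4 control-labelled libraries, against 213, 284, 276 and 224 CPM in the 4 mutant-labelled libraries in the same order, so its level does not separate the groups. *Mib1* RNA was at 122 ± 15.6 against 128 ± 6.62 CPM (SD, n = 4 each). A missense allele need not change the RNA level, so *Mib1* cannot check the labels. The directions below rest on the labels alone. Genotypes were compared with limma on log2(CPM + 0.5), with Benjamini-Hochberg (BH) adjustment over the 14608 genes. At an adjusted p-value of 0.05, 0 genes passed (0% of those tested), and 1763 (12.1%) had an unadjusted p-value under 0.05. In this test, therefore, none of the 7 myosin genes passed, and the values that follow are given without that call.

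The plain result was that, in the deposited values, RNA of 6 of the 7 genes was lower in every mutant-labelled library than in any control-labelled library. Their means were at 67.6% to 80.0% of the control-labelled means, while *Myl7* overlapped between the groups at 91.9%. For *Myh6* the gap was only 2.19 CPM, and on columns rescaled to an equal sum its groups overlap. Such a lack of overlap with the mutant-labelled libraries lower was found for 3.9% of all genes. The same 6 genes had an unadjusted limma p-value under 0.05 with the lower mean in the mutant-labelled libraries, which held for 6.62% of all genes, and 0 had one in the other direction. Higher values without overlap were found for 0 of the 7 and for 3.2% of all genes. The mean was lower for all 7, including *Myl7*, and for 49.6% of all genes. The median log2 fold change of the 7 genes was -0.39, against 0.001 over all genes, whose interquartile range was -0.10 to 0.11. For genes without overlap, the exact permutation p-value (two-sided, 70 relabellings) is fixed at 0.0286, the smallest that 4 against 4 libraries can give. In bulk tissue, fewer cardiomyocytes and less RNA per cardiomyocyte cannot be told apart.

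**Figure D1:**
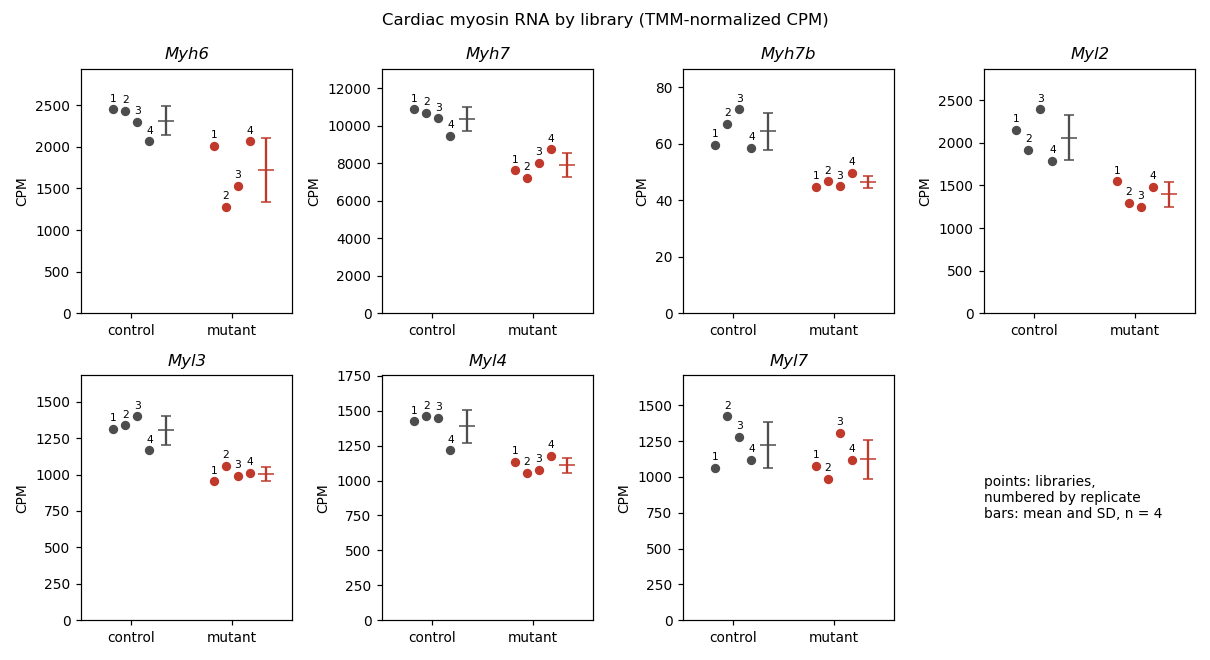
CPM (vertical axes, from 0) of the 7 cardiac myosin genes in the control-labelled (grey) and mutant-labelled (red) libraries, with the replicate number above each point and the mean and SD (n = 4) beside the points. The red points lie below all grey points for every gene but *Myl7*, and for *Myh6* the nearest points of the groups almost touch.

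Among the heavy chains, *Myh7* RNA measured 10879.5, 10710.1, 10401 and 9458 CPM over control-labelled replicates 1 to 4. In mutant-labelled replicates 1 to 4 it was at 7635, 7229.98, 8041 and 8753 CPM. Control-labelled replicate 4 was the lowest of its group and mutant-labelled replicate 4 the highest of its own, and 705 CPM still lay between them. The means were 10362 ± 634 and 7915 ± 649.7 CPM (SD, n = 4 each), with a log2 fold change of -0.39 (SE, its standard error, 0.11, 95% confidence interval or CI -0.62 to -0.16, limma BH-adjusted p = 0.249). With quantile normalization, which gives every library the same set of values, the log2 fold change of *Myh7* was -0.19 with an unadjusted limma p-value of 0.0860, the only alternative in which it was not under 0.05. Of the annotated genes that overlap *Myh7* on the other strand, the antisense RNA *Mhrt* had a mean of 44.8 CPM over the 8 libraries and *Gm31251* one of 21.2 CPM. The library kit marks the strand, but whether the counting used it is not given in the sources used here.

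*Myh6* RNA measured 2450.2, 2429, 2304 and 2066 CPM over control-labelled replicates 1 to 4. In the mutant-labelled libraries it was at 2016, 1279, 1533 and 2064 CPM. The mutant-labelled libraries thus formed a high pair, replicates 1 and 4, and a low pair, replicates 2 and 3, and only 2.19 CPM separated the highest of them from control-labelled replicate 4. The coefficient of variation was 7.62% among control-labelled and 22.1% among mutant-labelled libraries, the widest spread of the 7 genes. The means were 2312 ± 176 and 1723 ± 381 CPM (SD, n = 4 each), with a log2 fold change of -0.45 (SE 0.14, limma BH-adjusted p = 0.288), which moved between -0.55 and -0.31 when single libraries were left out.

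*Myh7b* RNA measured 59.6, 67.1, 72.2 and 58.6 CPM over control-labelled replicates 1 to 4 against 44.7, 46.7, 45.0 and 49.7 CPM in the mutant-labelled ones. The mutant-labelled libraries were close together, with a coefficient of variation of 4.92%, and all lay at least 8.93 CPM below the control-labelled ones. The means were 64.4 ± 6.47 and 46.5 ± 2.29 CPM (SD, n = 4 each), with a log2 fold change of -0.46 (SE 0.08, 95% CI -0.64 to -0.29, limma BH-adjusted p = 0.124). By its unadjusted p-value *Myh7b* was number 10 of the 14608 genes. It was the member with the fewest reads, and even there the lowest library held 708 of them.

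Of the ventricular light chains, *Myl2* RNA measured 2153, 1915, 2393 and 1789 CPM over control-labelled replicates 1 to 4. In mutant-labelled replicates 1 to 4 it was at 1548, 1297, 1253 and 1482 CPM. The groups were 241 CPM apart at their nearest, between control-labelled replicate 4 and mutant-labelled replicate 1. *Myl2* had the lowest mutant-labelled level relative to control of the 7 genes, 67.6%, with means of 2063 ± 267 and 1395 ± 143 CPM (SD, n = 4 each). Its log2 fold change was -0.56 (SE 0.11, 95% CI -0.79 to -0.33, limma BH-adjusted p = 0.142). *Myl3* RNA measured 1312, 1338, 1400.1 and 1167 CPM over control-labelled replicates 1 to 4 against 953, 1061, 989.6 and 1012 CPM in the mutant-labelled ones. Here too control-labelled replicate 4 was the lowest of its group, and it lay 107 CPM above the highest mutant-labelled library. The means of *Myl3* were 1304 ± 98.6 and 1004 ± 45.2 CPM (SD, n = 4 each), and its log2 fold change was -0.38 (SE 0.08, limma BH-adjusted p = 0.174).

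Of the atrial light chains, *Myl4* had separate groups and *Myl7* had not. *Myl4* RNA measured 1423, 1460.5, 1451 and 1216 CPM over control-labelled replicates 1 to 4, against 1133, 1055, 1075 and 1176 CPM in the 4 mutant-labelled libraries in the same order. Control-labelled replicate 4 stood apart from the other control-labelled libraries, and 40.4 CPM lay between it and the highest mutant-labelled one. The means of *Myl4* were 1388 ± 115 and 1109 ± 55.3 CPM (SD, n = 4 each), with a log2 fold change of -0.32 (SE 0.08, limma BH-adjusted p = 0.229). *Myl7* RNA measured 1065, 1423, 1279 and 1118 CPM over control-labelled replicates 1 to 4, against 1078, 985, 1309 and 1117 CPM in the 4 mutant-labelled libraries in the same order. The lowest control-labelled library was below 3 of the mutant-labelled ones, so the values were mixed. The means of *Myl7* were 1221 ± 162 and 1122 ± 136 CPM (SD, n = 4 each), with a log2 fold change of -0.12 (SE 0.11, 95% CI -0.36 to 0.12, limma BH-adjusted p = 0.653, exact permutation p = 0.40). The interval holds the estimate of *Myl4* and not those of the other 5 genes, and the difference between *Myl7* and the other genes was not tested.

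**Figure D2:**
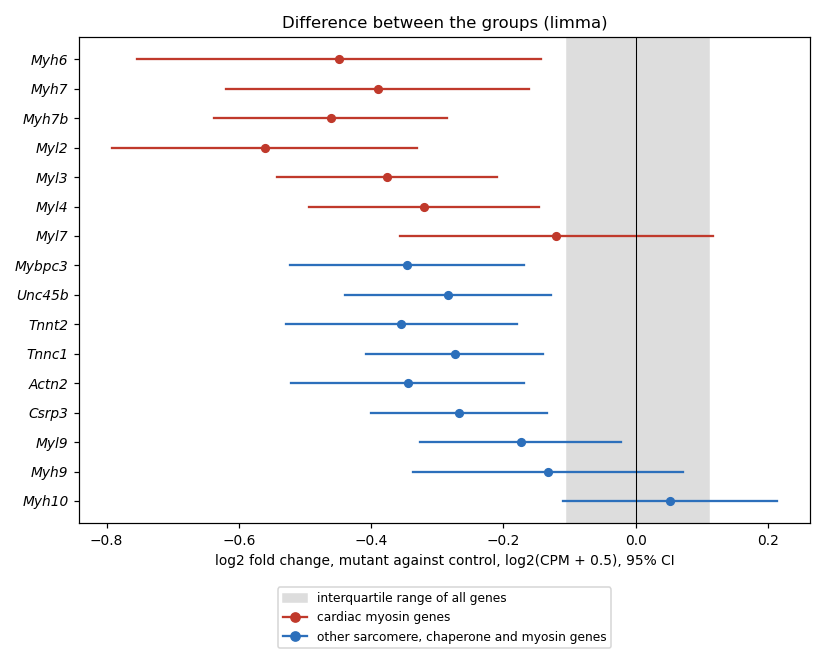
Log2 fold change of the mutant-labelled against the control-labelled libraries (horizontal axis, log2(CPM + 0.5), points) with 95% CIs from limma (lines) for the cardiac myosin genes (red) and for 9 other genes named in the text (blue), over the interquartile range of all 14608 genes (grey band, -0.10 to 0.11). The intervals of 6 myosin genes lie wholly below 0, that of *Myl7* spans 0, and no gene shown passed the adjusted threshold.

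The balance of isoforms within a library was measured by 3 shares of paired genes, computed on CPM per kb. *Myh7* made up 81.3%, 81.2%, 81.6% and 81.8% of *Myh6* and *Myh7* together in control-labelled replicates 1 to 4. In mutant-labelled replicates 1 to 4 it made up 78.8%, 84.7%, 83.7% and 80.6%. The means were nearly alike, 81.5% ± 0.254 and 82.0% ± 2.74 (SD, n = 4 each, exact permutation p = 0.80, 0.80 with Benjamini-Hochberg adjustment over the 3 shares), but all control-labelled libraries lay inside the range of the mutant-labelled ones. Since both genes share part of their sequence, this share depends on how the quantification split the common reads. The ventricular *Myl2* made up 57.3%, 47.2%, 55.4% and 51.5% of *Myl2* and *Myl7* in the control-labelled libraries and 48.8%, 46.6%, 38.8% and 46.8% in the mutant-labelled ones. Its mean share was 52.8% ± 4.48 against 45.3% ± 4.40 (SD, n = 4 each), a difference of -7.57 percentage points that did not pass the exact permutation test (p = 0.0571, 0.171 adjusted over the 3 shares). Control-labelled replicate 2, at 47.2%, was the library within the range of the mutant-labelled group. For the essential light chains, *Myl3* made up between 48.0% and 49.3% of *Myl3* and *Myl4* in the control-labelled libraries and between 45.8% and 50.3% in the mutant-labelled ones. Their means were 48.6% ± 0.672 and 47.7% ± 2.002 (SD, n = 4 each, exact permutation p = 0.371, 0.557 adjusted over the 3 shares).

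**Figure D3:**
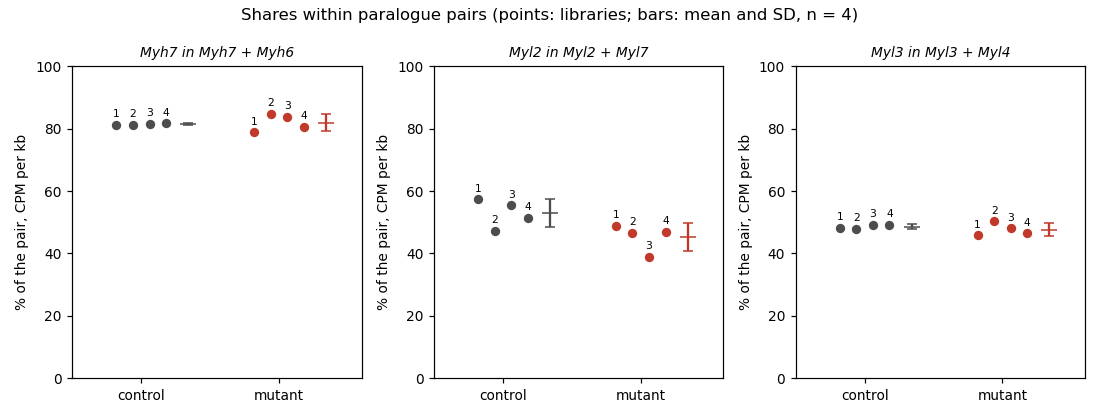
Share of *Myh7*, *Myl2* and *Myl3* in their pairs with *Myh6*, *Myl7* and *Myl4* (vertical axes, % of CPM per kb, from 0 to 100) in the control-labelled (grey) and mutant-labelled (red) libraries, with means and SD (n = 4). The share of *Myl2* is centred lower in the mutant-labelled libraries with 1 control-labelled library inside their range, and the shares of *Myh7* and *Myl3* spread more widely in the mutant-labelled group around a similar mean.

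RNA of other cardiomyocyte genes was at a lower mean level as well. Of 15 cardiomyocyte markers that are not among the 7 genes, all 15 had a lower mean in the mutant-labelled libraries, 9 without overlap between the groups, and 14 an unadjusted limma p-value under 0.05. Over all genes these shares were 49.6%, 3.9% and 6.62%. Their summed level was 14996 to 17246 CPM in control-labelled and 12541 to 13996 CPM in mutant-labelled libraries. Examples are the cardiac troponins *Tnnt2* (1863 ± 124 against 1457 ± 94.99 CPM) and *Tnnc1* (654 ± 29.8 against 541 ± 8.72 CPM; SD, n = 4 each). The Z-disc gene *Actn2* was at 1111 ± 69.2 against 876 ± 76.4 CPM and *Csrp3*, a muscle LIM protein, at 411 ± 9.29 against 342 ± 17.0 CPM (SD, n = 4 each), and *Tnnt2*, *Tnnc1*, *Actn2* and *Csrp3* did not pass the adjusted threshold. As a measure of the myosins beside this background, the mean log2(CPM + 0.5) of the 15 markers was subtracted from that of each gene in each library.

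On this scale the groups overlapped for all 7 genes. The difference of *Myl2* was -0.25 in log2 units, from 2.03 ± 0.14 to 1.79 ± 0.16 (SD, n = 4 each, exact permutation p = 0.0857), and that of *Myh7b* -0.15, from -2.95 ± 0.12 to -3.10 ± 0.03 (SD, n = 4 each, exact permutation p = 0.0857). *Myh7* differed by -0.077 and *Myl3* by -0.063 (exact permutation p = 0.143 and 0.171), and *Myl4* by -0.0069 (exact permutation p = 0.914). *Myl7* was the gene with a higher mean in the mutant-labelled libraries, by 0.19, from 1.28 ± 0.19 to 1.47 ± 0.17 (SD, n = 4 each, exact permutation p = 0.229). *Myh6* differed by -0.14 (exact permutation p = 0.514), and the mutant-labelled libraries ran from 1.67 in replicate 2 to 2.37 in replicate 1, on both sides of the control-labelled range of 2.13 to 2.27. These 7 p-values are unadjusted. Single libraries moved several of these differences by more than 1.5 times. That of *Myh6* was -0.0038 when mutant-labelled replicate 2 was left out, -0.24 when replicate 1 of that group was, and -0.21 when its replicate 4 was. That of *Myh7* was -0.037 without mutant-labelled replicate 2, and that of *Myl3* -0.039 without control-labelled replicate 3. That of *Myl7* was 0.12 without control-labelled replicate 1 and also without mutant-labelled replicate 3. Relative to *Tnnt2* alone, *Myh7* differed by -0.036 and *Myl3* by -0.021. The mean of the markers itself was 8.97 ± 0.06 against 8.66 ± 0.05 (SD, n = 4 each) and did not overlap.

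**Figure D4:**
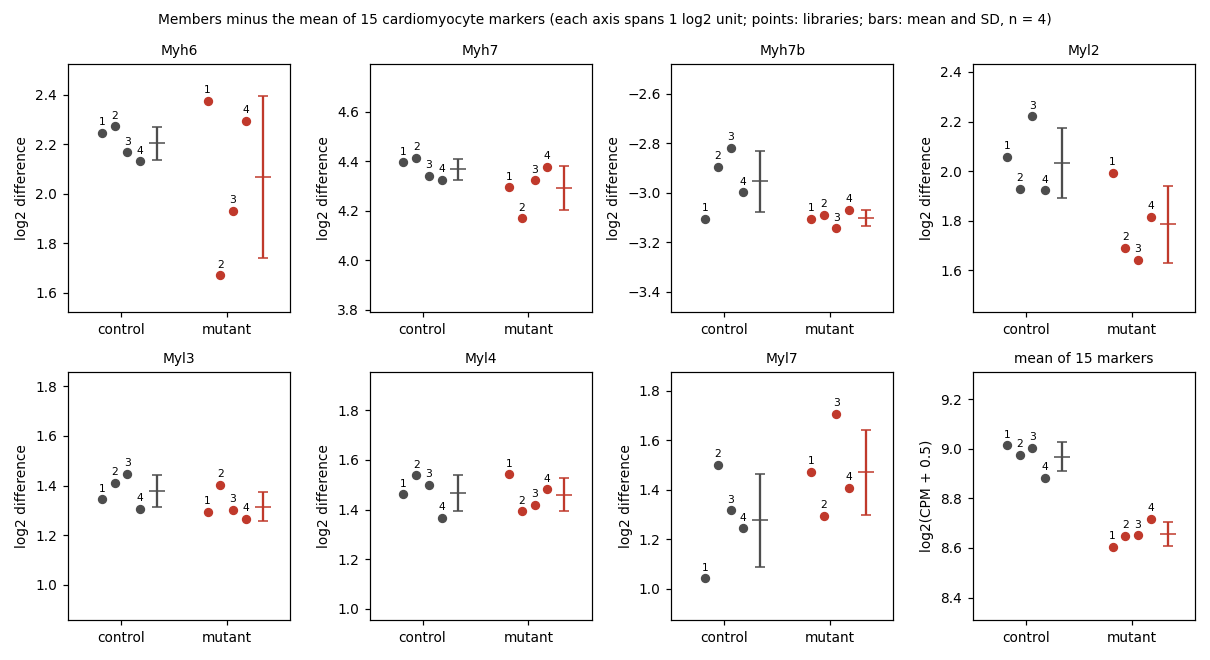
Log2(CPM + 0.5) of each cardiac myosin gene minus the mean of 15 cardiomyocyte markers in the same library (vertical axes, each spanning 1 log2 unit), and that mean itself in the last panel, for control-labelled (grey) and mutant-labelled (red) libraries, with means and SD (n = 4). The groups overlap for all 7 genes, from the lower-centred *Myl2* to the higher-centred *Myl7*, while the marker mean separates them.

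Markers of other cells in the OFT were counted in the same way. Over all genes, 6.62% had an unadjusted limma p-value under 0.05 with a lower and 5.45% with a higher mean in the mutant-labelled libraries. Endocardial and endothelial markers (8 of 8 listed genes in the table) summed to 832 to 989 CPM in control-labelled and 849.97 to 927 CPM in mutant-labelled libraries. Of these markers, 1 had an unadjusted p-value under 0.05, with a lower mean. Cushion mesenchyme markers (8 of 8) summed to 1957 to 2301 against 2102 to 2842 CPM with 0 such genes, and smooth muscle markers (7 of 7) to 2421 to 2835 against 2330.1 to 2854 CPM with 2 lower and 1 higher. Epicardial markers (6 of 6) summed to 327 to 432 against 319.97 to 539 CPM and erythroid markers (8 of 8) to 1752 to 3557 against 1469 to 5375 CPM, with 0 such genes in either list. Macrophage markers (6 of 6) summed to 40.5 to 53.6 against 41.1 to 65.8 CPM with 1 lower, and neural crest and neuronal markers (5 of 8) to 36.7 to 44.5 against 33.7 to 49.0 CPM with 1 higher. Of 10 markers of skeletal muscle precursors, the defining factors *Myod1*, *Myog*, *Myf5* and *Myf6* were not among the genes of the table. The 2 that were, *Acta1* and *Actn3*, had 0 unadjusted p-values under 0.05, and *Acta1* is also expressed in other muscle. The part of tissue composition in the lower myosin RNA was not tested.

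Other genes of the myosin machinery were taken from lists. Among partners of the thick filament, 8 of 11 listed genes were in the table, and 6 had an unadjusted p-value under 0.05 with a lower and 1 with a higher mean in the mutant-labelled libraries, with a median log2 fold change of -0.26, where 6.62% of all genes were lower and 5.45% higher by that measure. *Mybpc3*, the cardiac myosin-binding protein C, was at 1638 ± 133 against 1287 ± 70.2 CPM (SD, n = 4 each), without overlap. *Mybphl* had a log2 fold change of -0.28, and the M-band gene *Myom1* one of -0.24, both with overlapping values. All 9 genes listed for folding, assembly and turnover of myosin were measured, and 3 had an unadjusted p-value under 0.05, all lower (6.62% of all genes). The myosin chaperone *Unc45b* was at 272 ± 21.8 against 223 ± 10.02 CPM (SD, n = 4 each) without overlap, and *Trim63*, a ubiquitin ligase of the sarcomere, at 58.2 ± 3.09 against 45.5 ± 8.43 CPM.

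Heavy and light chains of other cells were examined next. All 3 non-muscle heavy chain genes were in the table with 0 unadjusted p-values under 0.05, and *Myh9* was at 593 ± 39.9 against 543 ± 68.8 CPM and *Myh10* at 1222 ± 20.7 against 1269.7 ± 99.9 CPM (SD, n = 4 each). Of 8 other heavy chains of striated or smooth muscle only *Myh11* was in the table, at 2.77 ± 0.861 against 5.16 ± 1.76 CPM (SD, n = 4 each, log2 fold change 0.78, limma BH-adjusted p = 0.270). The mutant-labelled libraries were higher for *Myh11* without overlap, and its unadjusted limma p-value was 0.0058. Its level was near the lower end of the table. The lowest value, 1.71 CPM, was in control-labelled replicate 2, the library with the fewest reads. *Myh11* is also the 1 higher gene counted above among the smooth muscle markers. Higher values without overlap were found for 3.2% of all genes. An unadjusted p-value under 0.05 was found with a higher mean for 5.45% and with a lower mean for 6.62% of all genes. Of the 8 other light chains 7 were measured, and the 1 with an unadjusted p-value under 0.05 was *Myl9* of smooth muscle, at 810.4 ± 45.7 against 718 ± 38.2 CPM (SD, n = 4 each). Of the kinases and phosphatase subunits that act on regulatory light chains, 8 of 10 were in the table and 2 had an unadjusted p-value under 0.05, both lower. They were *Mylk3*, the cardiac light chain kinase (169 ± 11.8 against 150.2 ± 12.5 CPM), and *Ppp1r12b*, a targeting subunit of the phosphatase (144 ± 10.6 against 123 ± 11.3 CPM; SD, n = 4 each), both with overlapping values.

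The list of transcription factors shares *Nkx2-5* with the cardiomyocyte markers. Of 22 transcription factors known to act on cardiac genes, all in the table, 7 had an unadjusted p-value under 0.05 with a lower mean and 1 with a higher mean in the mutant-labelled libraries, against 6.62% and 5.45% of all genes. *Irx4*, a ventricular factor linked to the choice between ventricular and atrial myosins, was at 46.8 ± 6.33 against 27.6 ± 4.91 CPM, and *Hopx* at 63.6 ± 5.94 against 39.9 ± 6.88 CPM (SD, n = 4 each). *Nkx2-5*, a core cardiac factor, was at 107 ± 16.9 against 78.0 ± 8.55 CPM (SD, n = 4 each), and *Nr2f1*, an orphan receptor of the COUP-TF family, at 17.9 ± 0.977 against 22.4 ± 1.73 CPM (SD, n = 4 each). In these 4 genes, named for the smallest limma p-values of the list, the groups did not overlap, and none passed the adjusted threshold. Of the 22 factors, 6 were lower and 1 higher without overlap, against 3.9% and 3.2% of all genes.

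The genes most like each myosin were sought over the 8 libraries, by Pearson r of log2(CPM + 0.5) among the 11650 other genes that averaged 5 CPM or more. The values are a description, since all points share the same 8 libraries and a group difference alone makes genes alike. Closest to *Myh6* were *Ppif*, *Des* and *Usp2* (r = 0.987, 0.987 and 0.982), and closest to *Myh7* were *Socs7*, *Actn2* and *Myo18b* (r = 0.987, 0.986 and 0.986). *Myh7b* was nearest to *Tnnc1*, *Pak6* and *Txnrd2* (r = 0.987, 0.972 and 0.97), and *Myl2* to *Klhl41*, *Aldh1b1* and *Sdhb* (r = 0.99, 0.987 and 0.975). For *Myl3*, *Idh2* was the nearest and *Lrrc10* the third (r = 0.986 and 0.975), and for *Myl4* the respiratory chain genes *Ndufv1* and *Uqcrfs1* (r = 0.987 and 0.980) with *Got1* (r = 0.984) between them. The neighbours of *Myl7* were *Plin3*, *Zfpm1* and *Rusc2* (r = 0.985, 0.980 and 0.979), and no gene was among the 3 nearest of more than 1 of the 7. Among the myosins themselves r ran from 0.635 to 0.963 over the 15 pairs without *Myl7* and from 0.270 to 0.490 over the 6 pairs with it.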

How the data were processed

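RNA-seq of E11.5 OFT was analysed in 8 libraries, 4 labelled control and 4 labelled Mib1V943F/+ Gata6STOP/+. According to the methods of the study, the authors trimmed adapters with cutadapt, quantified single-end reads of 60 bp with RSEM over GRCm38, and normalized by TMM in edgeR. The deposited unit is CPM, TMM-normalized by the authors, and each library has its own column, of which 0 went unused. Column values step by a constant, from 0.0325 to 0.0948 CPM. Taken as 1 read, it gives 10669420 reads on listed genes in control replicate 2 and 21064242 to 30469165 in the other libraries, and counting error weighs most on weakly expressed genes. The steps were not used for a count test.

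Values were compared with lmFit and eBayes with a trend (limma 3.58.1, R 4.3.3) on log2(CPM + 0.5), where the pseudocount shrinks the fold changes of weakly expressed genes. The fit was tested on simulated data with changes larger than those of the members, which says nothing of changes of the members' size. Single values were compared with exact two-sided permutation tests (scipy 1.17.1). The members, lists and alternatives were chosen with earlier results of these data known. Named are the members, the mutated genes, up to 4 genes with the smallest limma p-values of each other list and of the cardiomyocyte list, the 3 genes most like each member, and genes that overlap a member. Levels per kb use the longest principal coding transcript of GENCODE M21 on GRCm38, since the longest transcripts of *Myl3* and *Myl4* are retained introns. Sequences are from RefSeq, for which 3 of 3 miRNAs and 7 of 7 members matched. By the same numbers in the labels, libraries did not deviate together (r from -0.185 to 0.0349), so no pairing was used. Some genes that the naming rule selects are not reported here.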

Additional observations from a re-analysis of the deposited data

Results flagged for a closer look

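In groups of 4 libraries, the highest or lowest library was compared with the others by the Dixon gap test at its 95% critical value, which chance passes in about 1 of 20 groups. Of 94 groups examined, 7 passed it. *Myl4* was at 1216 CPM in control replicate 4, against 1423 to 1460.5 CPM in the other control-labelled libraries. *Mybpc3* was also low in that library, at 1441 CPM against 1674 to 1720.3 CPM. *Nkx2-5* was at 65.2 CPM in mutant replicate 2, against 81.8 to 83.0 CPM in the others, and *Csrp3* at 316 CPM in mutant replicate 3, against 349 to 352 CPM. *Myom1* was at 776 CPM in control replicate 1, against 615 to 637 CPM, and *Trim63* at 62.8 CPM in control replicate 3, against 56.2 to 57.1 CPM. *Myh14*, a non-muscle heavy chain near the lower end of the table, was at 3.05 CPM in mutant replicate 4, against 1.53 to 1.73 CPM.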

How the results depend on the processing

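The 7 genes kept the sign of their log2 fold change, and none passed the adjusted threshold, in 15 alternatives each (pseudocounts of 0.1 and 1, genes of at least 5 CPM, no trend, quantile normalization, rescaled columns, the replicate block and each library left out). The lowest adjusted limma p-value among them was 0.0872, for *Myh7b*. With the replicate block the log2 fold change of *Myl2* was -0.56 with an adjusted p-value of 0.435, the block took the genes with an unadjusted p-value under 0.05 from 1763 to 1304, and it changed no other call. With single libraries left out this number ran from 1121 (without control replicate 2) to 2163 (without control replicate 4), and was 1172 without control replicate 3, while 6 of the 7 members remained below 0.05 each time. When columns were rescaled to an equal sum, 740 genes were lower and 1161 higher, against 967 and 796, with a shift of the median to 0.022. The columns summed to 1000652 CPM in control replicate 4 and 995454 CPM in mutant replicate 4. Rescaling therefore reverses the order of these libraries for *Myh6*, and its lack of overlap depends on the scaling. With single libraries left out, the log2 fold change ran from -0.55 to -0.31 for *Myh6*, -0.44 to -0.35 for *Myh7*, -0.50 to -0.40 for *Myh7b*, -0.63 to -0.49 for *Myl2*, -0.43 to -0.34 for *Myl3*, -0.38 to -0.29 for *Myl4* and -0.20 to -0.043 for *Myl7*. The difference in the share of *Myh7* ran from -0.431 (without mutant replicate 2) to 1.54 percentage points and was -0.0999 without mutant replicate 3, so its sign is not settled. *Myl4* relative to the markers ran from -0.040 to 0.017, with 0.0041 without control replicate 3, 0.0062 without mutant replicate 3 and 0.015 without mutant replicate 2, and was 0.034 against *Tnnt2* alone. The cause was not tested. Shares per kb of the longest transcript of any type, an alternative chosen after seeing the data, had the same signs. The planned edgeR and DESeq2 tests on recovered reads were not run, so no alternative based on counts is given. With a library left out, the exact permutation test cannot go below 0.0571.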

Other observations

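*Myl1* and *Mylpf*, light chains of fast skeletal muscle that the embryonic heart also expresses at a low level, had overlapping groups and a wide spread. The *Myl1* levels in control replicates 1 to 4 were 44.3, 25.98, 32.4 and 30.8 CPM, against 36.6, 10.04, 19.7 and 33.1 CPM in the mutant replicates. Those of *Mylpf* were 7.24, 4.65, 5.85 and 3.85 CPM against 7.66, 2.39, 3.84 and 5.37 CPM in the same order. In both, as in *Myh6*, mutant replicates 2 and 3 were the lower pair of their group. The observation was made after the values were seen and was not tested.

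The 3 antisense genes that overlap *Myh7* in the table had their highest value in control replicate 2, the library with the fewest reads. The *Mhrt* levels in control replicates 1 to 4 were 38.2, 76.7, 40.1 and 56.1 CPM, against 45.3, 25.9, 40.3 and 35.9 CPM in the mutant replicates. *Gm31251* was at 41.5 CPM in control replicate 2 and at 11.4 to 23.2 CPM elsewhere, and *Gm29015* at 12.2 CPM there and at 3.53 to 8.59 CPM elsewhere. *Gm49130*, antisense to the end of *Myh6*, was at 14.5 CPM in that library and at 2.58 to 6.40 CPM in the others. The sense genes did not stand apart there, with *Myh7* at 10710.1 CPM between control replicates 1 and 3.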
